A study of Mus musculus with 22 samples.

Results

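The 39 Hox cluster genes that could be read by symbol were described in C3H 10T1/2, a line of mouse mesenchymal stem cells that forms adipocytes under an inducing medium, across 11 combinations of DNMT3A genotype and stage with 2 RNA-seq libraries each. The genes are every row of the count table, among 30170, whose symbol is Hoxa, Hoxb, Hoxc or Hoxd followed by a number: 11 of Hoxa, 10 of Hoxb, 9 of Hoxc and 9 of Hoxd. No expression value was used to choose them. The cells expressed DNMT3A that was WT, W330R or W330R-R181E. W330 is a tryptophan of the PWWP domain, the part of DNMT3A that reads methylated histone H3, and R181 lies before that domain in the long isoform. The labels of the samples write the second change as R181E, whereas the column names of the same 6 libraries write R181A. WT and W330R were sampled undifferentiated and on days 2, 4 and 6 of adipocyte differentiation, and W330R-R181E on days 2, 4 and 6. Undifferentiated cells had no treatment. Differentiation was started with isobutylmethylxanthine, dexamethasone, insulin and troglitazone and continued with insulin alone. All conditions came from the same line, and the labels say neither how the DNMT3A variants were introduced nor whether a genotype is 1 clone. The gene-level counts do not separate mutant from WT Dnmt3a transcripts. The labels do not say whether the libraries of a condition came from separate cultures, so that p-values here measure the spread between these libraries only.

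Hox genes encode homeodomain transcription factors that give cells their position along the body axis and in the limb. They lie in 4 clusters, Hoxa on chromosome 6, Hoxb on chromosome 11, Hoxc on chromosome 15 and Hoxd on chromosome 2, and a gene's paralog number follows its place in its cluster, from anterior (low) to posterior (high). Silent Hox clusters are a classic target of Polycomb repression, and mesenchymal cells keep the Hox pattern of the part of the body from which they came. The title of the study concerns DNMT3A, a de novo DNA methyltransferase, at Polycomb targets that carry ubiquitinated H2A, which makes the Hox clusters a natural place to compare the genotypes at the RNA level.

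The promoters of the genes on which the results turn, and of 1 gene without a single count, show the CpG sites on which a DNA methyltransferase acts. Each sequence is a RefSeq window of GRCm38.p6 with 250 bases before and 50 bases after a transcription start, on the strand of the gene, with CG in capitals. Hoxa10 has 2 annotated starts.
Hoxa2, chr6:52164782-52165081, minus strand: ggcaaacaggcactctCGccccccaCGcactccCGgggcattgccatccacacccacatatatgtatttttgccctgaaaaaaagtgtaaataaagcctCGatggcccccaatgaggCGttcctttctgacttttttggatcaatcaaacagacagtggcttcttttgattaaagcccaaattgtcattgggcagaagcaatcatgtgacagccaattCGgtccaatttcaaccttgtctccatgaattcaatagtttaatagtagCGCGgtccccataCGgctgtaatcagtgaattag
Hoxa7, chr6:52218524-52218823, minus strand: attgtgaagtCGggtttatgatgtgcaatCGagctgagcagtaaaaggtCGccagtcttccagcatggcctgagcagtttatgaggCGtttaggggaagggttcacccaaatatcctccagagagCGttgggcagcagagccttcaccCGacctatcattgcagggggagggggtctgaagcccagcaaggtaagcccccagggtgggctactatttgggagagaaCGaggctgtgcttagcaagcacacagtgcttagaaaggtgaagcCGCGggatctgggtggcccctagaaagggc
Hoxa10, chr6:52234890-52235189, minus strand: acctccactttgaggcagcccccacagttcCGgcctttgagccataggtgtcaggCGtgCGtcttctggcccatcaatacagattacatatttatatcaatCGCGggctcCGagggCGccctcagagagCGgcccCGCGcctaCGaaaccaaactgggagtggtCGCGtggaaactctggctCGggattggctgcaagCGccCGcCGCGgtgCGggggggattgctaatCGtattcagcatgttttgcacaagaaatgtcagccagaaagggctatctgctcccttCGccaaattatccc
Hoxa10, chr6:52240805-52241104, minus strand: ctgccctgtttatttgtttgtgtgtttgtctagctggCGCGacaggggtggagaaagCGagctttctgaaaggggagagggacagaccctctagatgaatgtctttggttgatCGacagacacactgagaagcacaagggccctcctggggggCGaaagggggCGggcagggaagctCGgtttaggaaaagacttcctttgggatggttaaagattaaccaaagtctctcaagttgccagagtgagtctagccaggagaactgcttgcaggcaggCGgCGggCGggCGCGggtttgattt
Hoxd1, chr2:74762730-74763029, plus strand: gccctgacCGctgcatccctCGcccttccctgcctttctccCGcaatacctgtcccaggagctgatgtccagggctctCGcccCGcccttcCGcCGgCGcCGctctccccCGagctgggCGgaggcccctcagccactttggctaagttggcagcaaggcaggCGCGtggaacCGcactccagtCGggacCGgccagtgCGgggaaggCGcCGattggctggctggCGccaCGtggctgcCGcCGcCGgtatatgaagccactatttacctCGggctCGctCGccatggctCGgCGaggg
These windows held 9 CpG sites for Hoxa2, 9 for Hoxa7, 21 and 12 for Hoxa10, and 29 for Hoxd1. The RefSeq table held 24 windows for 22 of the 39 genes. Their median was 14.5 CpG sites, against a median of 7 over all 32851 promoter windows of the table. The 8 windows of Hoxa genes had a median of 16, and the 10 windows of genes that stayed at the detection floor had a median of 20. The CpG-rich windows thus belonged to silent as well as to expressed genes. No DNA methylation was measured in these libraries.

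Short motifs were searched on both strands of the same windows. TGATTNAT, a core bound by Pbx and Hox proteins together, was in 3.22% of all promoter windows and in those of Hoxa2 and Hoxd11. TATAAA was in 13.6% of all windows and in 4 Hox windows, TAATTA, a homeodomain core, in 5.29% and in the 2 windows of Hoxd11, and CCGCCC, an Sp1 core, in 35.7% and in 10. TGATTNAT and TAATTA can overlap in a window. A match is only a string of letters.

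The libraries held between 8859501 reads (W330R-R181E day 6 replicate 2) and 47453908 reads (W330R day 6 replicate 1) counted on genes. Levels are given as CPM, counts scaled to library sizes normalized by TMM, and levels of different genes are compared only per kilobase of merged exon. A gene was taken as at the floor in a condition when both libraries had 3 counts or fewer. 3 counts correspond to 0.0583 to 0.347 CPM depending on the library, and this floor covers counting error only.

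Transcription of Hox genes in these cells was almost entirely that of the Hoxa cluster. Of 78540 counts on Hox genes over the 22 libraries, 76916 fell on Hoxa, 1079 on Hoxc, 483 on Hoxb and 62 on Hoxd. Per kilobase, Hoxa made up 96.3% to 99.0% of the Hox signal in every library. In the Hoxa cluster 9 genes, among them Hoxa2 to Hoxa7, Hoxa9 and Hoxa10, were above the floor in every condition, whereas the posterior Hoxa11 and Hoxa13 were at the floor in all 11. Hoxc13 was the only gene outside Hoxa that was above the floor in every condition.

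**Figure D1:**
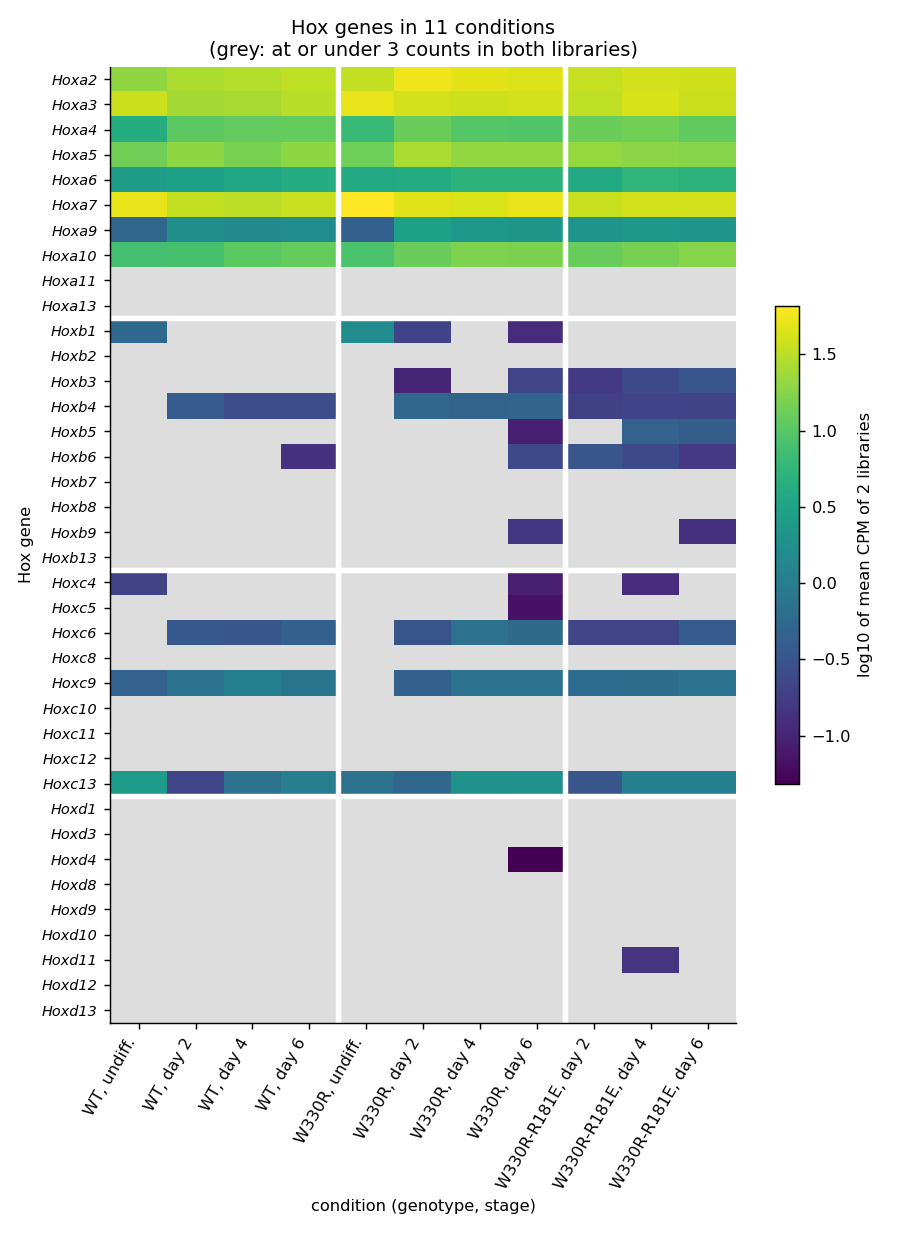
Mean CPM of the 2 libraries, on a log10 colour scale, of Hox genes (rows, by cluster and paralog number) in the 11 conditions (columns), with grey where both libraries had 3 counts or fewer. Colours compare conditions within a gene, since CPM are not scaled by length. The genes from Hoxa2 to Hoxa10 form the only unbroken block, and 17 genes are grey in every condition.

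17 of the 39 genes were at the floor in every condition. These were Hoxa11 and Hoxa13, Hoxb2, Hoxb7, Hoxb8 and Hoxb13, Hoxc8, Hoxc10, Hoxc11 and Hoxc12, and Hoxd1, Hoxd3, Hoxd8, Hoxd9, Hoxd10, Hoxd12 and Hoxd13. Hoxb13 and Hoxd1 had 0 counts in all 22 libraries. Another 12 genes were at the floor in some conditions and above it in others: Hoxb1, Hoxb3, Hoxb4, Hoxb5, Hoxb6 and Hoxb9, Hoxc4, Hoxc5, Hoxc6 and Hoxc9, and Hoxd4 and Hoxd11. The remaining 10 genes were above the floor throughout.

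The number of genes at the floor was 26, 26, 26 and 25 in WT undifferentiated, day 2, day 4 and day 6 cells. It was 28, 24, 26 and 18 in W330R at the same stages, and 24, 21 and 22 in W330R-R181E on days 2, 4 and 6. The lowest number belonged to W330R day 6, the condition that also held the deepest library, and the part of depth in this count was not tested. Fewer expressing cells and less RNA per cell cannot be told apart in such bulk samples.

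The genes near the floor are best read as counts. Hoxb3 reached at most 18 counts in a library, Hoxb5 16, Hoxb6 16, Hoxb9 12 and Hoxc4 9. Hoxc5 and Hoxd4 reached at most 5 counts each and were above the floor in W330R day 6 alone. Hoxd11, which had the highest level per kilobase in the Hoxd cluster, had 28 counts in all, with 0 to 4 in a library. A cluster can therefore hold reads in many genes without any of them being measured well, and no Hoxd gene entered a test. The summed CPM of the Hoxd genes lay between 0 and 0.694 with a median of 0.134, against 96.2 to 212 with a median of 178 for Hoxa. Hoxb genes summed to 0.340 to 2.54 CPM and Hoxc genes to 0.656 to 4.20 CPM.

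Within Hoxa, levels did not follow the order of the genes along the cluster. Per kilobase of merged exon and averaged over the 22 libraries, Hoxa2 was at 20.9, Hoxa7 at 15.1, Hoxa5 at 10.0, Hoxa4 at 6.58, Hoxa3 at 6.09, Hoxa6 at 4.80, Hoxa10 at 3.81 and Hoxa9 at 0.319 CPM per kilobase. Hoxa5 lay above Hoxa4 in 22 of 22 libraries, so that this step held in each of them. Hoxa2 lay above Hoxa7 in 17 of 22, Hoxa4 above Hoxa3 in 15 and Hoxa3 above Hoxa6 in 15, so that these neighbours changed places between libraries. Part of this went with stage, since Hoxa7 lay above Hoxa2 in every undifferentiated library. In undifferentiated cells the mean of Hoxa3 was above that of Hoxa4, 6.12 against 2.64 in WT and 8.73 against 4.03 in W330R. It was also above in W330R on days 4 and 6. The order depended on the length that was used. With the median coding transcript as the length, Hoxa7 was first at 59.9 and Hoxa3 next at 24.9, ahead of Hoxa2 at 20.9. Hoxa9 was last of the expressed genes either way.

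**Figure D2:**
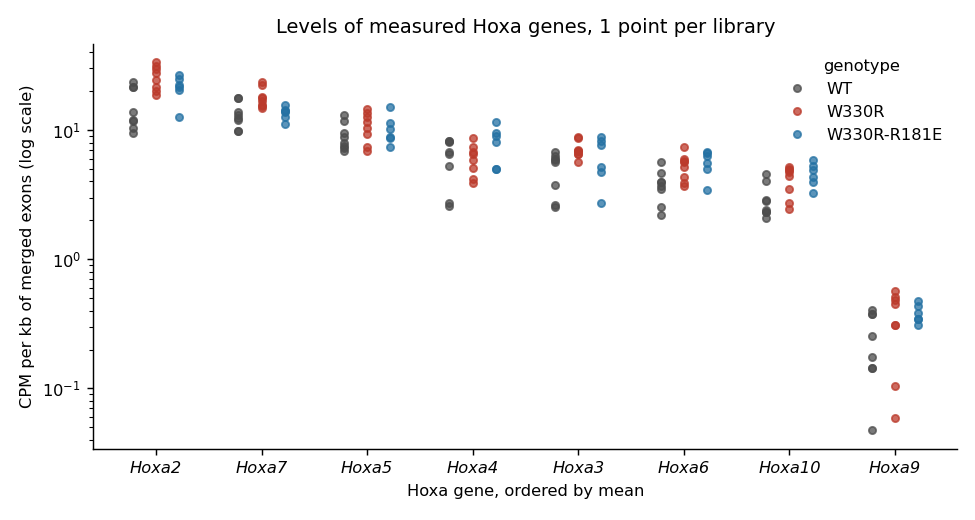
Level of expressed Hoxa genes in CPM per kilobase of merged exon on a log axis, with 1 point per library and the libraries split by genotype. Hoxa2 and Hoxa7 lie at the top and Hoxa9 at the bottom, 20.9, 15.1 and 0.319 CPM per kilobase on average.

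Levels of several Hoxa genes moved with the replicate number. From day 2 on, replicate 1 was above replicate 2 for 9 of 9 expressed Hoxa genes in WT on each day, for 4, 9 and 8 of 9 in W330R on days 2, 4 and 6, and for 9, 8 and 9 of 9 in W330R-R181E. In undifferentiated cells this held for 3 of 9 in WT and 5 of 9 in W330R. Over all genes tested, 41.8% to 55.2% were higher in replicate 1. The median ratio of replicate 1 to replicate 2 over the 9 genes was highest in W330R-R181E on day 2, at 2.02, and was 1.57, 1.69 and 1.45 in WT on days 2, 4 and 6. The labels do not say what a replicate number shares, and its part in the results below was not tested beyond the fit with the number as a block.

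**Figure D3:**
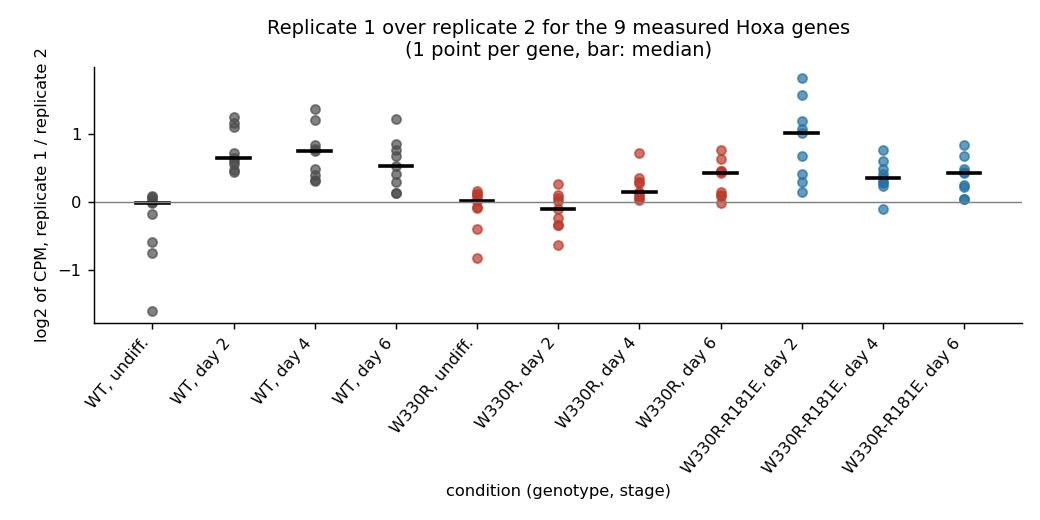
Log2 ratio of CPM in replicate 1 to replicate 2 (vertical axis) for each of the 9 expressed Hoxa genes (points, with bars at their median) in each condition, with a line at equal levels. The points of days 2 to 6 lie mostly above the line, with a median ratio of up to 2.02, except in W330R on day 2, and the undifferentiated conditions lie on both sides of it.

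The first comparison between genotypes was W330R against WT over all 4 stages, which asks whether the PWWP change went with other Hox RNA levels. 3 Hoxa genes, Hoxa2, Hoxa7 and Hoxa10, were higher in W330R, by 1.37-fold to 1.69-fold. Hoxa2 is known for patterning the hindbrain and the branchial arches, Hoxa7 belongs to the central paralogs that act in the trunk, and Hoxa10 is known for its part in the lumbar skeleton and the uterus. They were 3 of the 14 Hox genes with enough counts to test, and none of the 14 was lower. Over all 14520 genes tested, 22.9% were called in this comparison and 11.2% were called higher, so that the 3 of 14 was close to the share of all genes called in either direction. Outside Hoxa the genes tested were Hoxb1, Hoxb4, Hoxc6, Hoxc9 and Hoxc13. The other 25 Hox genes were not tested.

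Hoxa2 had 18.5 and 20.8 CPM in undifferentiated WT, 38.0 and 16.9 on day 2, 38.0 and 21.2 on day 4, and 41.6 and 24.4 on day 6. In W330R the values were 35.8 and 33.1, 59.3 and 49.4, 55.6 and 43.6, and 52.9 and 38.3. W330R lay above WT in 8 of 8 pairs of the same stage and replicate number, and the libraries did not overlap at 3 of the 4 stages, with day 6 as the exception. The numbers did not pair the undifferentiated libraries by the check described under processing. The share of all genes was not counted for such pairs, here or below, so that they are a description. The average difference was 0.75 on the log2 scale (SE 0.20, adjusted p = 0.0152, edgeR's quasi-likelihood test with Benjamini-Hochberg adjustment), or 1.69-fold, with means of 46.0 and 27.4 CPM (n = 8 libraries each).

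Of the 31-base words of Hoxa2, 13.7% are shared with Gm28308, an overlapping gene model in the table. Gm28308 itself had 0.264 to 3.01 CPM, and its difference of 0.69 was not called (adjusted p = 0.0998, edgeR). The sum of both genes was higher in W330R in 8 of 8 pairs as well, with means of 48.1 and 28.7 CPM. Reads that fit both models could have been given to either. Whether the counting used strand is not given in the sources used here, so that reads of antisense transcripts cannot be told apart from those of the Hox genes.

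Hoxa7 had 51.0 and 51.1 CPM in undifferentiated WT, 39.5 and 28.4 on day 2, 35.4 and 28.5 on day 4, and 37.6 and 34.1 on day 6. In W330R it had 64.3 and 67.6, 45.2 and 48.2, 44.0 and 42.9, and 51.4 and 52.0 CPM. W330R was above WT at each of the 4 stages without overlap, and Hoxa7 was the only Hox gene tested whose WT and W330R libraries did not overlap when days 2 to 6 were pooled, with W330R above. Of all genes 2.73% were separated in this direction and 2.52% in the other. The average difference was 0.45 (SE 0.079, adjusted p = 0.00161, edgeR), or 1.37-fold, with means of 51.9 and 38.2 CPM.

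Hoxa10 had 7.57 and 7.61 CPM in undifferentiated WT, 9.21 and 6.79 on day 2, 13.3 and 7.86 on day 4, and 14.97 and 9.33 on day 6. The W330R libraries had 8.90 and 7.98, 11.4 and 14.3, 17.04 and 16.001, and 16.5 and 15.4 CPM. The groups did not overlap within any of the 4 stages, though the undifferentiated libraries were close. The average difference was 0.47 (SE 0.14, adjusted p = 0.0263, edgeR), or 1.39-fold, with means of 13.4 and 9.58 CPM. Hoxa10 was the least stable of the 3 calls, since leaving out 1 library ended it in 9 of 22 cases (0.38 to 0.59, adjusted p = 0.00769 to 0.0757). The libraries that ended it were both undifferentiated WT libraries, WT replicate 2 of days 2, 4 and 6, and W330R undifferentiated replicate 1, day 2 replicate 2, day 4 replicate 1 and day 6 replicate 1. Hoxa2 and Hoxa7 stayed called in all 22 cases.

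**Figure D4:**
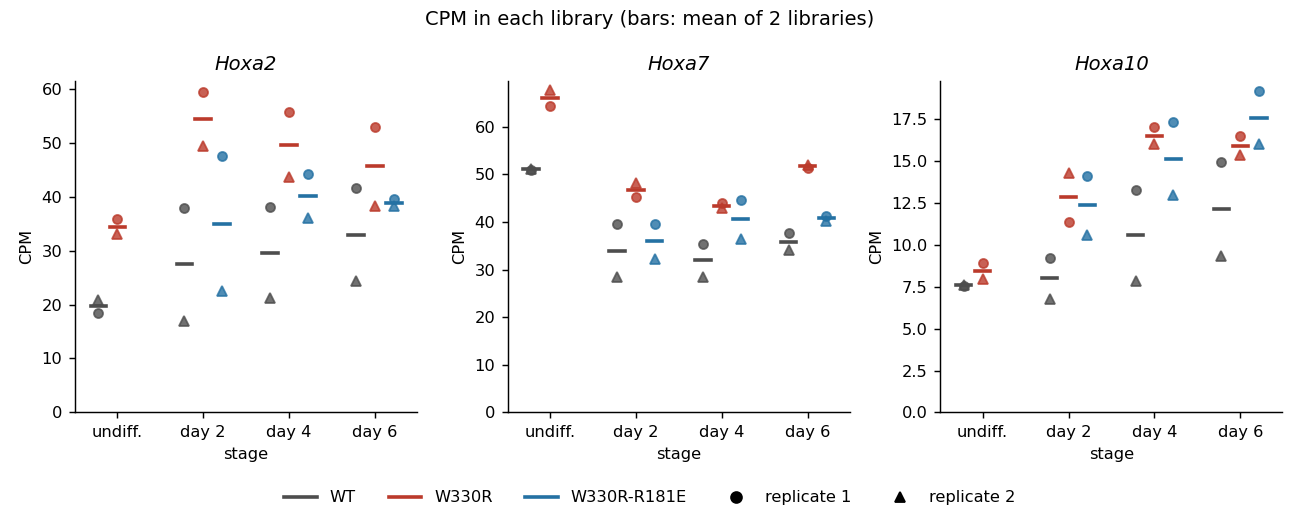
CPM of Hoxa2, Hoxa7 and Hoxa10 in each of the 22 libraries by stage, with the genotype by colour, replicates 1 and 2 by symbol and bars at the mean of 2 libraries. W330R lies above WT in 8 of 8 pairs for each gene, and the W330R-R181E libraries of days 2 and 6 lie below both W330R libraries for Hoxa7.

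The undifferentiated libraries bear column names of another pattern than those of days 2 to 6, so that the comparison was also made without them. Over days 2 to 6 alone, Hoxa2 differed by 0.74 (SE 0.23, adjusted p = 0.0266), Hoxa7 by 0.48 (SE 0.091, adjusted p = 0.00167) and Hoxa10 by 0.58 (SE 0.16, adjusted p = 0.0150) between W330R and WT (edgeR). The same 3 Hox genes were thus called with and without these stages, and 29.0% of all genes were called over days 2 to 6. On these days the replicate numbers paired the libraries by the check described under processing. With the number as a block 34.5% of all genes and 6 Hox genes were called, the added ones being Hoxa3 at 0.63 (adjusted p = 0.0225), Hoxa5 at 0.33 (adjusted p = 0.0424) and Hoxc13 at 1.18 (adjusted p = 0.0279), by edgeR.

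The other expressed Hoxa genes did not pass the test. Hoxa3 had a difference of 0.54 and was higher in 8 of 8 pairs (adjusted p = 0.137), Hoxa6 of 0.49 (adjusted p = 0.0811), Hoxa9 of 0.36 (adjusted p = 0.407) and Hoxa5 of 0.22 (adjusted p = 0.331), all by edgeR. Hoxa4 was near 0, at 0.08. The median of the 9 Hoxa genes was 0.45, against 0.01 for all genes tested. Of the words of Hoxa3, 26.0% occur in other gene models and 12.6% in models of the table, and of the words of Hoxa7 20.5% and 1.01%.

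Outside Hoxa no Hox gene passed the test over the 4 stages. Hoxb1, which patterns the hindbrain, had a difference of 0.76 (adjusted p = 0.320), and Hoxc13, which acts in hair and nails, one of 0.39 (adjusted p = 0.518, both edgeR). Hoxc9 had -0.63 and was lower in W330R in 8 of 8 pairs (adjusted p = 0.168, edgeR), at levels of 0.231 to 1.08 CPM. Hoxb4 and Hoxc6 had -0.05 and -0.63, with 0 to 3 counts in each undifferentiated library. Over days 2 to 6 alone they had 0.77 (adjusted p = 0.185) and 0.45 (adjusted p = 0.499, both edgeR). These genes had few reads, 93 for Hoxb1, 140 for Hoxb4, 166 for Hoxc6, 297 for Hoxc9 and 543 for Hoxc13 over all 22 libraries.

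Within a single stage, with 2 libraries against 2, edgeR called 0 of the 14 Hox genes at each of the 4 stages. The background called was 1.75%, 3.06%, 6.14% and 7.54% in undifferentiated cells and on days 2, 4 and 6. At an unadjusted p under 0.05 the test gave 2, 3, 2 and 1 of the 14. The share of all genes at that level was not counted, here or in the other comparisons. DESeq2 called 0, 0, 0 and 1, Hoxa7 on day 6, against 528, 1081, 1700 and 1754 genes in all. With the block 1 was called on each of days 2, 4 and 6, Hoxa2 on day 2 and Hoxa7 on the later days. The block called 909, 1848 and 1757 genes in all on these days. The smallest adjusted p by edgeR was 0.326, 0.132, 0.110 and 0.0571. The differences of the 3 genes called over all stages kept their sign at each stage, with 0.81, 0.99, 0.75 and 0.47 for Hoxa2, 0.37, 0.46, 0.44 and 0.53 for Hoxa7, and 0.15, 0.69, 0.65 and 0.39 for Hoxa10. W330R libraries lay above both WT libraries for 7, 6, 7 and 5 of the 14 genes, against 30.1%, 22.3%, 28.0% and 30.9% of all genes. They lay below both for 2, 1, 2 and 0, against 32.3%, 20.6%, 24.8% and 26.4%. The genes above include Hoxb1 in undifferentiated cells and on day 6, and Hoxb4 on days 4 and 6. Each passed the filter on low counts only through stages where it was higher, so that these 2 support nothing on their own. For the change of the W330R difference from WT between undifferentiated cells and day 6, edgeR called 0 Hox genes and 3.88% of all genes. At an unadjusted p under 0.05 there was 1 Hox gene. DESeq2 called 0 Hox genes and 1109 genes in all. The fit of only the conditions compared called 1 Hox gene and 1247 genes in all.

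**Figure D5:**
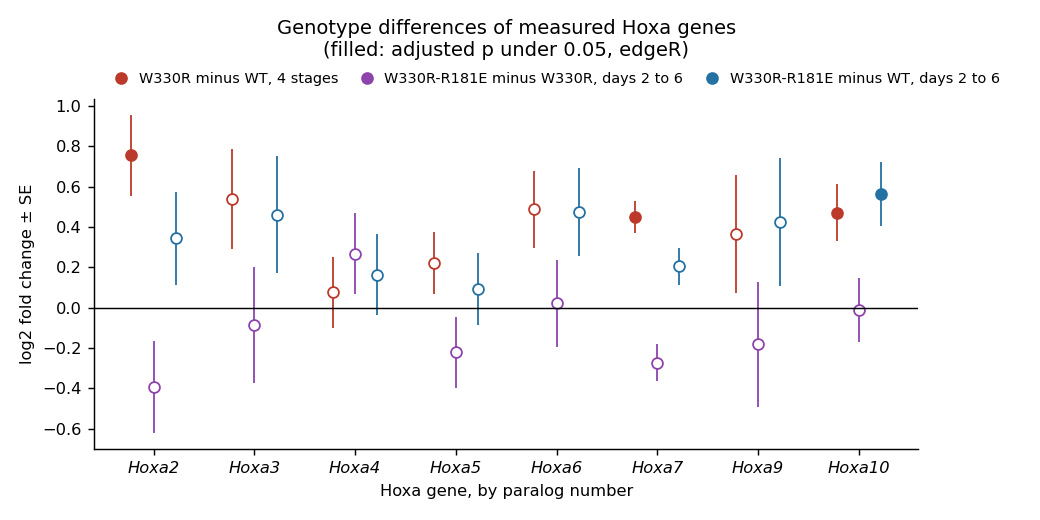
Log2 fold change with its standard error for the expressed Hoxa genes in 3 averaged comparisons, W330R against WT over 4 stages, W330R-R181E against W330R and W330R-R181E against WT over days 2 to 6, with filled points for calls at an adjusted p under 0.05. Hoxa2, Hoxa7 and Hoxa10 are filled in the first comparison, none in the second and Hoxa10 alone in the third.

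W330R-R181E was set against W330R to ask whether the second change, added to W330R, went with other levels. Over days 2 to 6 edgeR called 0 of the 14 Hox genes, against 17.2% of all genes, with 2 at an unadjusted p under 0.05. DESeq2 called 1, Hoxa7, and its share of all genes is not given here. The replicate numbers paired these libraries by the check described under processing, and with the number as a block 21.9% of all genes and 1 Hox gene, Hoxa7, were called.

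Hoxa7 had 39.6 and 32.2, 44.6 and 36.5, and 41.4 and 40.2 CPM in W330R-R181E on days 2, 4 and 6. On days 2 and 6 both of these libraries were below both of W330R, and on day 4 the ranges overlapped. The difference was -0.27 (SE 0.091, adjusted p = 0.0527) without the block and -0.28 (adjusted p = 0.0231) with it, both by edgeR. Hoxa2 in W330R-R181E had 47.5 and 22.5, 44.1 and 36.1, and 39.5 and 38.3 CPM. It was higher than in W330R in 0 of 6 pairs, though replicate 2 of day 6 was nearly equal, at 38.334 against 38.338 CPM. The Hoxa2 difference of -0.39 had an SE of 0.23 (adjusted p = 0.271, edgeR). Hoxa10 differed by -0.01. Hoxb4, at 0.0821 to 0.297 CPM in W330R-R181E and 0.374 to 0.685 in W330R, did not overlap between the genotypes, which held in the same direction for 2.16% of all genes, with a difference of -1.28 (adjusted p = 0.0574, edgeR). The cutoff of the filter on low counts was 0.517 CPM, which no W330R-R181E library reached for Hoxb4. These Hoxb4 values are therefore a description and support nothing on their own. The median of the 9 Hoxa genes was -0.09, against 0.01 for all genes.

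Against WT, over the same days, Hoxa10 was the 1 Hox gene called in W330R-R181E and was higher. Of all genes 9.57% were called, 4.46% higher, and 16.1% with the block. Hoxa10 had 14.1 and 10.6, 17.3 and 12.95, and 19.2 and 16.03 CPM in W330R-R181E on days 2, 4 and 6, above the WT library of the same number in 6 of 6 pairs. The difference was 0.56 (SE 0.16, adjusted p = 0.0428, and 0.0119 with the block, edgeR), with means of 15.03 and 10.2 CPM (n = 6 libraries each). The call was lost in 16 of 22 cases in which 1 library was left out (adjusted p = 0.017 to 0.132) and in the fit of only the conditions compared, which called 0 Hox genes (adjusted p = 0.178).

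The other Hoxa genes leaned the same way in W330R-R181E without passing the test. Hoxa7 had a difference of 0.20 from WT (adjusted p = 0.168) and was higher in 6 of 6 pairs, and Hoxa2 one of 0.34 (adjusted p = 0.356, both edgeR) and was higher in 5 of 6. The median of the 9 Hoxa genes was 0.41, against 0.00 over all genes, and 3 of the 14 Hox genes were at an unadjusted p under 0.05. This comparison and that of W330R with WT share the WT libraries. The W330R values for the same 9 genes, with a median of 0.45 over all 4 stages and not over days 2 to 6 alone, are therefore not an independent repeat.

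Differentiation from day 2 to day 6 went with few differences in Hox RNA. EdgeR called 0 of the 14 genes in WT, W330R and W330R-R181E, against 26.6%, 25.0% and 23.2% of all genes, with 3, 1 and 0 at an unadjusted p under 0.05. DESeq2 called 1, 1 and 0, in both cases Hoxc13, and its shares of all genes are not given here. Hoxc13 had 0 and 0.443 CPM on day 2, 0.505 and 0.915 on day 4 and 1.08 and 1.07 on day 6 in WT. In W330R it had 0.321 and 0.799, 1.72 and 2.07, and 1.98 and 1.81 CPM on the same days, and in W330R-R181E 0.0821 and 0.594, 0.729 and 1.43, and 0.883 and 1.30. Day 6 lay above day 2 in all 3 genotypes without overlap, as it did for 30.5%, 35.3% and 28.0% of all genes in WT, W330R and W330R-R181E, and the differences were 2.09 (SE 0.84, adjusted p = 0.0797), 1.72 (SE 0.74, adjusted p = 0.104) and 1.51 (SE 0.81, adjusted p = 0.195) by edgeR. In undifferentiated cells Hoxc13 had 2.64 and 2.67 CPM in WT, its highest values, but 0.653 and 0.809 in W330R. Hoxa10 differed between day 6 and day 2 by 0.61, 0.31 and 0.52 in the 3 genotypes, none of them called.

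More Hox genes differed between undifferentiated cells and day 6, a step that cannot be told apart from a batch because the undifferentiated columns are named in another way. In WT 5 of 14 were called, against 49.3% of all genes, and in W330R 5 of 14, against 38.5%. These counts include Hoxb1, Hoxb4 and Hoxc6, which passed the filter on low counts only through the stages where they were higher, and so support nothing on their own. Hoxa4 in WT went from 4.31 and 4.10 CPM to 13.2 and 10.7, a difference of 1.50 (SE 0.36, adjusted p = 0.00354, edgeR). It was already at 12.8 and 8.46 CPM on day 2. In W330R, Hoxa4 was at 6.61 and 6.24 CPM in undifferentiated cells and at 10.8 and 8.05 on day 6.

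Hoxa7 fell by 0.51 in WT (SE 0.16, adjusted p = 0.0161, edgeR), from 51.0 and 51.1 CPM to 37.6 and 34.1. Hoxa10 rose by 0.92 in W330R (SE 0.28, adjusted p = 0.0202, edgeR), and in WT, where it had 7.57 and 7.61 against 14.97 and 9.33 CPM, the difference of 0.68 was not called by edgeR (adjusted p = 0.0597) but was by DESeq2 (adjusted p = 0.0445) and with the replicate block (adjusted p = 0.0291). Hoxa9 rose in W330R from 0.327 and 0.578 CPM to 2.68 and 1.72, by 2.31 (SE 0.63, adjusted p = 0.0109, edgeR). In WT its change was 1.50 (SE 0.59, adjusted p = 0.0478, edgeR), a call that was lost in 18 of 22 cases without 1 library, without the filter on low counts (adjusted p = 0.0609) and with the block. The tests within each genotype do not show that the genotypes differ in these steps, and no Hox gene was called for that difference.

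Hoxb1, the Hoxb gene with the highest level per kilobase, was higher in undifferentiated cells than on day 6 in both genotypes. It had 5 and 16 counts in WT and 11 and 20 in W330R before differentiation, or 0.440 and 0.712 CPM and 0.898 and 2.31 CPM. On day 6 it was at 0.0567 and 0.0486 CPM in WT and 0.117 and 0.123 in W330R, and in W330R-R181E at 0.0232 and 0. In WT the pooled level was 11.9 times higher before differentiation than on day 6, with a 95% counting interval of 2.90 to 104 that rests on 2 counts on day 6 (exact binomial). In W330R it had 6 and 3 counts on day 6. Hoxb1 passed the filter on low counts through 3 undifferentiated libraries and 0 of days 2 to 6, so that these values are a description and not a test.

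Hoxb4 and Hoxc6 took the opposite course. Hoxb4 had 0 and 1 counts in undifferentiated WT and 0 and 0 in undifferentiated W330R, against 1 to 23 in the other conditions. In WT the pooled day 6 level was 8.85 times higher, with a 95% counting interval of 1.26 to 384 that rests on 1 count. In W330R, day 6 was at least 3.56-fold higher for Hoxb4 and at least 4.05-fold higher for Hoxc6, with the undifferentiated pair set at 3 counts over both libraries. Both genes passed the filter through 4 libraries of days 2 to 6 each and 0 undifferentiated ones, so that this too is a description.

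TALE homeodomain proteins are the DNA-binding partners of Hox factors, and all 9 of the list of Pbx, Meis and Pknox genes were tested. In W330R against WT 4 of 9 were higher and 0 lower, against 11.2% and 11.8% of all genes. Among them Meis2 was higher by 0.60 (SE 0.069, adjusted p = 1.19e-04), Meis3 by 0.42 (SE 0.093, adjusted p = 0.00578) and Meis1 by 0.47 (SE 0.12, adjusted p = 0.0130), all by edgeR. In W330R-R181E against W330R, 0 were higher and 4 lower, against 7.87% and 9.36% of all genes. Among the lower ones were Pknox2 at -1.68, Meis3 at -0.90 and Meis2 at -0.68. On days 2 to 6 Pknox2 was at 0.149 to 0.758 CPM in W330R-R181E, close to the floor. It was at 0.802 to 2.30 CPM in W330R and 0.492 to 1.81 in WT. With the block 5 TALE genes were lower, where 21.9% of all genes were called in either direction. In W330R-R181E against WT Pknox2 alone was called, at -1.29, against 4.46% of all genes higher and 5.12% lower. The medians of the list were 0.17, -0.49 and -0.02, against 0.01, 0.01 and 0.00 over all genes.

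Chromatin regulators of Hox clusters, the Polycomb and Trithorax proteins, gave 5 of 23 higher and 1 lower in W330R against WT, with 11.2% and 11.8% of all genes. The higher ones were Cbx7 (0.57), Phc1 (0.54), Phc2 (0.43) and Pcgf2 (0.37), subunits of Polycomb repressive complex 1, and Men1 (0.25), a subunit of MLL complexes. Between W330R-R181E and W330R, 0 of 23 were higher and 5 lower, with 7.87% and 9.36% of all genes. The lower ones were Kmt2a, Pcgf2, Men1, Cbx2 and Cbx7. With the block 6 were lower, where 21.9% of all genes were called in either direction. Between W330R-R181E and WT, Rnf2 and Phc2 were the 2 called higher and 1 was lower, with 4.46% and 5.12% of all genes.

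Of the 16 listed neighbours of the clusters 13 were in the table and 10 were tested. In W330R against WT 1 was higher and 2 lower, near the 11.2% and 11.8% of all genes. Hnrnpa1, next to Hoxc, was higher by 0.42 in W330R than in WT, whereas Hibadh and Snx10, near Hoxa, were lower, at -0.47 and -0.52. In W330R-R181E against W330R, Tax1bp1, Hibadh and Skap2, all near Hoxa, were higher and 0 lower, with 7.87% and 9.36% of all genes. With the block 4 were higher, where 21.9% of all genes were called in either direction. In W330R-R181E against WT, Hnrnpa1 was higher and Mtx2 (-0.77) and Hibadh (-0.35) were lower, with 4.46% and 5.12% of all genes. With the block 2 were higher and 2 lower, where 16.1% of all genes were called in either direction. The 21 listed RNAs within the clusters, antisense transcripts among them, were not analysed here.

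DNA methyltransferases were not called in any of the 3 averaged comparisons without the block, with 3 of 4 tested. With the block Dnmt1 was higher and Dnmt3a lower in W330R against WT. The share of all genes called with the block is not given here for that comparison, and without it 22.9% were called. The replicate numbers did not pair these libraries over the 4 stages. Dnmt3a was also lower with the block in W330R-R181E against WT, where 16.1% of all genes were called with it. Dnmt3a itself had 344 to 346 CPM in undifferentiated WT and 316 to 326 in undifferentiated W330R. On days 2 to 6 it had 105 to 322 CPM in WT, 87.4 to 142 in W330R and 68.5 to 148 in W330R-R181E. The difference between W330R and WT over 4 stages was -0.36 (SE 0.20, adjusted p = 0.211, edgeR).

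Adipocyte and mesenchymal markers differed between the same genotypes as Hoxa2, Hoxa7 and Hoxa10. Of 8 adipocyte markers, 4 were lower and 0 higher in W330R against WT, where 11.8% and 11.2% of all genes were called, with Cebpa, a transcription factor of adipocyte differentiation, at -1.86 (adjusted p = 1.85e-05, edgeR). Their summed level on days 2 to 6 was 2860 to 9228 CPM in WT, 1435 to 2452 in W330R and 1701 to 4339 in W330R-R181E, against 51.6 to 59.7 in undifferentiated cells. Of 10 mesenchymal markers, 5 were higher and 0 lower in the same comparison, among them Pdgfra (0.84) and Prrx1 (0.62). On days 2 to 6 their summed level was 3391 to 12271 CPM in WT, 4176 to 14411 in W330R and 2943 to 13452 in W330R-R181E, so that the sums overlapped. W330R-R181E had 4 adipocyte markers higher and 7 mesenchymal markers lower than W330R, where 7.87% of all genes were higher and 9.36% lower. It had 3 adipocyte markers lower than WT, where 5.12% of all genes were lower. The line had mesenchymal markers, though not all of the list at every stage. Thy1 was at 19.1 to 21.1 CPM in undifferentiated WT but at 0 to 0.907 in WT on days 2 to 6. On those days it reached at most 8.32 CPM in W330R and 1.51 in W330R-R181E. The part of differentiation state in the Hox differences was not tested.

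Markers of other cell types were low. The epithelial Cdh1 was called higher in W330R than in WT, by 1.44. In W330R-R181E the blood marker Lyz2 was higher than in W330R (1.46) and than in WT (1.28), and the endothelial marker Tek was lower than in W330R, at -1.29. The summed level was 0.0984 to 1.62 CPM for pluripotent cells, at most 5.67 for epithelial cells with Epcam at 0 in all libraries, 3.30 to 16.5 for blood cells, at most 24.1 for endothelial cells and at most 0.463 for skeletal muscle with Myod1 at 0. Interferon-response genes, looked at after their values were seen, stood apart in 4 libraries, W330R replicate 1 of days 2, 4 and 6 and W330R-R181E day 6 replicate 1, with 38.2 to 307 CPM of Ifit1 and 15.5 to 126 of Isg15 against 0.197 to 10.1 and 0.149 to 3.90 in the other 18. Hoxa2 and Hoxa7 stayed called without any 1 of them, and Hoxa10 was lost without the W330R library of day 4 or that of day 6.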

How the data were processed

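RNA was sequenced in 22 libraries of C3H 10T1/2 cells, prepared from total RNA. The authors deposited 1 table of whole, unnormalized counts per gene symbol, and the submitters' processing notes name kallisto, DESeq2 1.40 and GRCm39 without saying which step made the counts. Columns were matched to samples by genotype, stage and replicate number. The 39 Hox genes and all gene lists were chosen with earlier results of these data known.

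Of 30170 genes, 14520 passed edgeR's filterByExpr (edgeR 4.0.16, R 4.3.3, with a minimum count of 10 and a minimum total of 15). After TMM normalization a single quasi-likelihood model with 1 mean per condition took in all 22 libraries, and the conditions shared the estimate of the spread. 13 contrasts were tested, and a call needed an adjusted p (Benjamini-Hochberg) under 0.05. Standard errors were the log2 fold change divided by the square root of F. Fits were tested on simulated data.

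Replicate numbers come from the labels. Deviations from the condition means correlated between libraries of the same number with r of 0.157 to 0.245 between W330R-R181E and W330R and 0.324 to 0.534 between W330R-R181E and WT, and these libraries were taken as paired. Between W330R and WT r was 0.0298 in undifferentiated cells and 0.168 to 0.258 later, and these were taken as paired on days 2 to 6 but not over the 4 stages. Libraries of a condition correlated at 0.956 to 0.987, and no files were identical.

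Alternatives were DESeq2 1.42.0, RLE normalization, no filter, a fit of only the conditions compared, the replicate block and leaving out each library. Fits of days 2 to 6 alone, with and without the block, and another gene length were added after the data were seen. Values in every condition are given for Hox genes called in an averaged comparison, for day 6 against day 2 or within a stage. They are also given for Hoxa2 and Hoxc13, the genes of Hoxa and Hoxc with the highest mean CPM per kilobase. Hoxb1, the highest of Hoxb, is given for undifferentiated cells and day 6. Hoxd11, the highest of Hoxd, and the others are given by counts, ranges or some of their values. Lengths, 31-base words and overlaps came from GENCODE M21 and promoters from RefSeq, both on GRCm38. Some of the genes counted are not reported here by name.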

Additional observations from a re-analysis of the deposited data

Results flagged for a closer look

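Hoxa4 differed between stages in the direction of the genotypes. Both W330R libraries were above both WT libraries in undifferentiated cells, 6.61 and 6.24 against 4.31 and 4.10 CPM, and both were below on day 4, 10.4 and 9.30 against 13.1 and 10.4 CPM. The test of the difference between day 6 and undifferentiated cells gave -0.95 (SE 0.50, adjusted p = 0.364, edgeR). The difference between day 4 and undifferentiated cells was not tested.

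Hoxc13 went the other way. W330R was below WT in undifferentiated cells, 0.653 and 0.809 against 2.64 and 2.67 CPM, and above it on day 4, 1.72 and 2.07 against 0.505 and 0.915 CPM, and on day 6, 1.98 and 1.81 against 1.08 and 1.07 CPM. The difference between day 6 and undifferentiated cells was 2.68 (SE 1.06, adjusted p = 0.195, edgeR), and it did not pass. Whether the stages differ beyond the spread between libraries is thus not shown for either gene.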

How the results depend on the processing

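The count of 3 Hox genes between W330R and WT over 4 stages held with DESeq2, RLE, no filter and the fit of only the conditions compared, and lay at 2 to 4 without 1 library. Over the 4 stages the replicate numbers did not pair these libraries, and with the block 4 Hox genes were called, Hoxa3 among them (adjusted p = 0.017, edgeR). The share of all genes called by that fit is not given here. With days 2 to 6 only and the replicate block, added after the data were seen, 5011 genes and 6 Hox genes were called. No result reversed.

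Counts that moved by over 1.5 times were the following. DESeq2 called 2272 genes for W330R-R181E against WT (1390 by edgeR), 528, 1081, 1700 and 1754 between W330R and WT before differentiation and on days 2, 4 and 6 (254, 445, 891 and 1095), and 1109 for the difference between day 6 and undifferentiated cells (564). It called 1 Hox gene for W330R-R181E against W330R, for W330R against WT on day 6, and for day 6 against day 2 in WT and in W330R. The replicate block gave 2338 genes for W330R-R181E against WT, 392, 909, 1848 and 1757 at the 4 stages and 1014 for the difference. It gave 1 Hox gene for W330R-R181E against W330R, for W330R against WT on days 2, 4 and 6 and for day 6 against day 2 in WT and W330R. The fit of only the conditions compared gave 163 genes for W330R-R181E against WT, 4194, 0, 0 and 57 at the 4 stages, 1030 and 80 for day 6 against day 2 in WT and W330R-R181E, and 1247 for the difference. Its Hox counts were 2 for W330R-R181E against W330R, 0 against WT, 5 in undifferentiated cells, 3 and 8 for day 6 against undifferentiated cells in WT and W330R and 1 for the difference. Without the filter 1 Hox gene was called for W330R-R181E against W330R and 3 for day 6 against undifferentiated cells in WT. The cause of these shifts was not tested.

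Without 1 library, W330R-R181E against W330R gave 1585 to 2556 genes and 0 to 3 Hox genes, and against WT 483 to 2089 and 0 to 2. W330R against WT gave 48 to 287 genes in undifferentiated cells, 34 to 505 on day 2 with 0 to 1 Hox genes, 40 to 1065 on day 4, and 131 to 1437 on day 6 with 0 to 1. Day 6 against day 2 gave 2101 to 4152 genes in WT, 1624 to 3922 in W330R and 1315 to 3806 in W330R-R181E, each with 0 to 1 Hox genes. Day 6 against undifferentiated cells gave 2 to 6 Hox genes in WT and 3341 to 5853 genes with 1 to 5 Hox genes in W330R, and the difference 161 to 784 genes. The 25 Hox genes with too few counts were not tested.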
